A study of Mus musculus with 8 samples.

Results

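The 10 mouse genes described here had large falls after treatment with BMS309403 and belong to no common pathway: Cpm, Tmem273, Stab1, Fbln2, Adssl1, Rap1gap2, St8sia6, Cttn, Ramp1 and Art2b. These 10 members stand among 53465 gene IDs listed in the count files and 14443 genes tested, and all 10 passed the filter on low counts. They were chosen by symbol for their fall between the same libraries used here, so their own differences are given as a description and were not tested. The RNA came from regulatory T cells (Tregs) made in culture from CD4+ T cells of wild-type C57BL/6 mice, taken from spleen and lymph nodes. Treated cells (labelled FABPi, n = 4) received 50 µM BMS309403, which blocks fatty acid-binding proteins and which the study used to inhibit FABP5, and control cells (labelled Treg, n = 4) did not. Both arms had first grown for 72 h on anti-CD3 plates (5 µg/mL) with TGF-β at 5 ng/mL, anti-CD28 antibody at 0.5 µg/mL, 100 U/mL of IL-2 and antibodies blocking IL-4, IL-12 and IFN-γ (10 µg/mL). The labels state no vehicle for the control arm and no length of exposure. Whether replicates share a mouse or a culture is also unstated. Effects of the compound on FABP5, on other targets and of any solvent cannot be told apart.

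Most of the encoded proteins work at the cell surface, outside the cell or in the Golgi. Carboxypeptidase M (Cpm) and ART2.2 (Art2b) are enzymes held on the outer face of the membrane by a lipid anchor; the first trims basic residues from peptides such as kinins, and the second uses extracellular NAD to ADP-ribosylate surface proteins of T cells, among them the ATP-gated channel P2X7. Stabilin-1 (Stab1) is a scavenger receptor best known from macrophages and endothelium, RAMP1 (Ramp1) pairs with the receptor encoded by Calcrl to bind the neuropeptide CGRP, and Tmem273 encodes a transmembrane protein. Fibulin-2 (Fbln2) is an extracellular matrix protein, and St8sia6 encodes a Golgi sialyltransferase. Inside the cell, Adssl1 encodes the muscle isoform of adenylosuccinate synthase, which acts on the way to AMP, Rap1gap2 a protein that switches off the small GTPase Rap1, and Cttn cortactin, which binds branched actin.

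Total counts ran from 38.7 to 42.6 M per treated library and 32.9 to 44.6 M per control library. Levels are given as CPM (counts-per-million), where the library total is scaled by edgeR's TMM factors. The labelled cell type was checked against its markers: of 11 T cell and Treg genes all were tested, 4 were called higher and 5 lower. Called higher were Foxp3, Il2ra, Cd2 and Tnfrsf18. Called lower were Cd3e, Cd3d, Cd3g, Trac and Lck (log2 fold changes -0.46, -0.36, -0.26, -0.21 and -0.20). Foxp3 averaged 1247 CPM in treated and 950.0 CPM in control libraries, Il2ra 3412 and 2562 CPM, and Cd4, which was not called, 573 and 598 CPM. Across all genes, edgeR's quasi-likelihood test at an adjusted p under 0.05 called 2694 higher and 2617 lower in treated libraries. A called fall is therefore common in these data: 18.1% of tested genes were called lower, and in 16.1% all 4 treated libraries lay below all 4 control libraries. All 10 members did both, which their choice fixed.

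RefSeq promoter windows on GRCm38.p6 were found for 9 of the 10 members, all but Cttn. Those of 5 are shown, as the 250 bases before the start annotated by RefSeq. They are Cpm, Tmem273 and Stab1, which had the largest differences, and Adssl1 and Art2b. Adssl1 shares the motif AGGTCA with Cpm and TGANTCA with Art2b. Members not shown share motifs too, as given below. The Art2b window lies within the gene span given below and not upstream of it, as do the Fbln2 and St8sia6 windows, which are not shown. Letters run 5′ to 3′ on the gene's strand, and capitals mark the matches to 12 short motifs searched on both strands.
Cpm (chr10:117629250-117629499, plus strand): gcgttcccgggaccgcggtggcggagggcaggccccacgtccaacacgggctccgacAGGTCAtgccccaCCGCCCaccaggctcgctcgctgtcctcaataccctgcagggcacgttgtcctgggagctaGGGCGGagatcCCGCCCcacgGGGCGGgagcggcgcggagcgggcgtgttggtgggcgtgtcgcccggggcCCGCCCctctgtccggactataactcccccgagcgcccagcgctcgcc
Tmem273 (chr14:32785713-32785962, plus strand): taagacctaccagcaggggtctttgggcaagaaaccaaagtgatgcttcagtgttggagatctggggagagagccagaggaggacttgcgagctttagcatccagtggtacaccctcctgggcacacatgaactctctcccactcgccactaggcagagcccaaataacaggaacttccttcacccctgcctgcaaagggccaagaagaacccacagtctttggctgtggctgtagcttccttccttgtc
Stab1 (chr14:31168642-31168891, minus strand): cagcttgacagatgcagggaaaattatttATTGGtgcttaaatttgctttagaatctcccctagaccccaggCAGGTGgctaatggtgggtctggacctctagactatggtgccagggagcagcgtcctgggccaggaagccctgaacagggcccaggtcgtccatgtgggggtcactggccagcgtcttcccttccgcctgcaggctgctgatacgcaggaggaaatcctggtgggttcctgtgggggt
Adssl1 (chr12:112619797-112620046, plus strand): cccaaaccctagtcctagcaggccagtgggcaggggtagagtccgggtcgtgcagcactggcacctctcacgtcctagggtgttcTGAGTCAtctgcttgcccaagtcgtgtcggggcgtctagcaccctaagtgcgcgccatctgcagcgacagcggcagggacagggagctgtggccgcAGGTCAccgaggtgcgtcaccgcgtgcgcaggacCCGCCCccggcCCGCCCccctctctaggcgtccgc
Art2b (chr7:101581162-101581411, minus strand): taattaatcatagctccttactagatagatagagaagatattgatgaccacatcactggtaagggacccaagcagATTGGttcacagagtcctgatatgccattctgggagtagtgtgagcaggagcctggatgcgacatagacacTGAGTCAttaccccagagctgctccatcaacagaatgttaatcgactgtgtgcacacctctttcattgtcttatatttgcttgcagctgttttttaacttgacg
The nuclear receptor motif AGGTCA was found in the first window of 2 of the 9 members, Cpm (193 to 188 bases before the start) and Adssl1 (69 to 64 bases), and in 14.0% of all 32851 windows. The AP-1 site TGANTCA was found in Adssl1 (165 to 159 bases) and Art2b (104 to 98 bases) and in 6.75% of all windows. The GC box GGGCGG was found in Cpm at 5 places, and in Adssl1, Fbln2 and Rap1gap2, 4 of 9 members against 32.7% of all windows. The CCAAT box was found in Stab1 and Art2b (33.8% of all windows) and CACCTG in Stab1 and Ramp1 (17.2%). No first window of a member held the TATA box TATAAA (12.4% of all windows), the E-box CACGTG (6.02%), the STAT site TTCNNNGAA (7.02%), the forkhead site TGTTTAC (3.17%), the RUNX site TGTGGTT (4.40%), the CRE site TGACGTCA (1.55%) or the SMAD site AGACAG (20.3%). Tmem273 and St8sia6 held no match, no matches overlapped, and no motif was common to all members.

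Among the surface enzymes, Cpm was the member with the greatest difference. Cpm (ENSMUSG00000020183, chromosome 10, 117629500 to 117687352, plus strand, GRCm38) stood at 3.23, 3.83, 4.22 and 3.41 CPM in treated replicates 1 to 4, against 40.2, 61.2, 57.5 and 56.6 CPM in control replicates 1 to 4. Control replicate 1 was the low library of its group, yet it still lay 9.55-fold above the highest treated library. The means were 3.67 ± 0.440 CPM in treated and 53.9 ± 9.31 CPM in control libraries (SD, n = 4), a fitted log2 fold change of -3.88 (SE 0.14), so that 6.81% of the control level was left. In bulk RNA, fewer cells that express a gene and less RNA per cell cannot be told apart. Art2b (ENSMUSG00000030651, chromosome 7, 101576970 to 101585600, minus strand) stood at 5.72, 5.40, 4.86 and 5.46 CPM in treated replicates, against 22.4, 20.0, 17.9 and 20.0 CPM in control replicates. It had the smallest difference of the members (log2 fold change -1.90, SE 0.08). Its ratio between libraries of the same number was the most even of the members, at 3.66-fold to 3.92-fold. The labels do not state that libraries of the same number are paired.

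**Figure D1:**
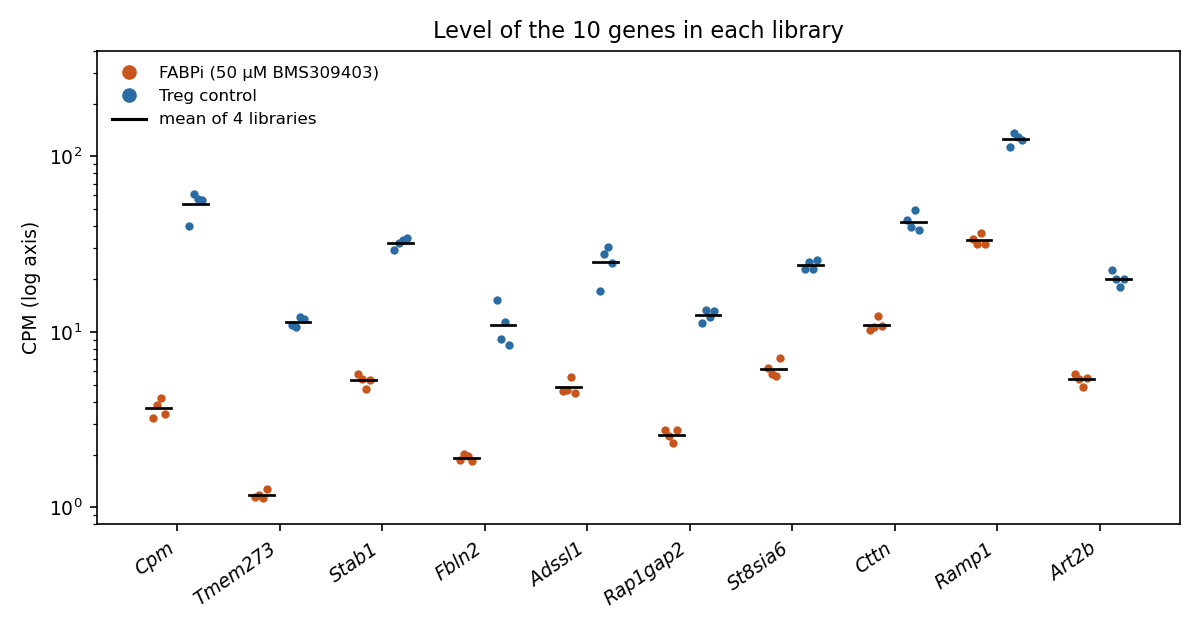
CPM of each of the 10 genes (log axis) in the 4 treated (FABPi) and the 4 control (Treg) libraries; points are libraries and bars are group means. In every gene the treated points lie below the control points, from a gap of 3.06-fold between the nearest libraries in Adssl1 to 9.55-fold in Cpm.

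Of the membrane proteins, Tmem273 (ENSMUSG00000041707, chromosome 14, 32785963 to 32817984, plus strand) stood at 1.14, 1.18, 1.14 and 1.27 CPM in treated replicates, against 11.0, 10.7, 12.2 and 11.9 CPM in control replicates. These are 44 to 53 reads per treated library and 355 to 478 per control library, the fewest reads of any member in treated cells. The log2 fold change was -3.27 (SE 0.10). Stab1 (ENSMUSG00000042286, chromosome 14, 31139013 to 31168641, minus strand) stood at 5.72, 5.38, 4.76 and 5.29 CPM in treated replicates, against 29.3, 32.1, 33.6 and 34.1 CPM in control replicates (log2 fold change -2.61, SE 0.07). Ramp1 (ENSMUSG00000034353, chromosome 1, 91179822 to 91225196, plus strand) was the most abundant member, with 34.1, 31.5, 36.6 and 31.5 CPM in treated replicates against 112.9, 135.9, 128.5 and 124.7 CPM in control replicates (log2 fold change -1.91, SE 0.07). In all 3 genes every treated library lay below every control library, as in every member by the choice made. Of all tested genes 16.1% did the same.

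The matrix and Golgi members differed in how even their control libraries were. Fbln2 (ENSMUSG00000064080, chromosome 6, 91212455 to 91272540, plus strand) stood at 1.86, 2.02, 1.97 and 1.85 CPM in treated replicates, against 15.2, 9.08, 11.4 and 8.38 CPM in control replicates. Control replicate 1 was the highest, and the ratio of control to treated libraries of the same number ran from 4.50 to 8.19 (fitted log2 fold change -2.51, SE 0.18). St8sia6 (ENSMUSG00000003418, chromosome 2, 13651021 to 13794064, minus strand) stood at 6.26, 5.73, 5.61 and 7.14 CPM in treated replicates, against 22.8, 24.9, 22.7 and 25.8 CPM in control replicates (log2 fold change -1.96, SE 0.08). In Fbln2 and St8sia6, as in every member by the choice made, each treated library lay below each control library.

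The members that act inside the cell stood at 19.3% (Adssl1), 20.8% (Rap1gap2) and 25.8% (Cttn) of the control level in treated libraries. Adssl1 (ENSMUSG00000011148, chromosome 12, 112620045 to 112641360, plus strand) stood at 4.60, 4.69, 5.56 and 4.49 CPM in treated replicates, against 17.0, 28.0, 30.3 and 24.8 CPM in control replicates (log2 fold change -2.37, SE 0.16). Here control replicate 1 was the low library, the reverse of its place in Fbln2. Rap1gap2 (ENSMUSG00000038807, chromosome 11, 74383356 to 74610915, minus strand) stood at 2.75, 2.55, 2.33 and 2.76 CPM in treated replicates, against 11.2, 13.4, 12.1 and 13.1 CPM in control replicates (log2 fold change -2.26, SE 0.09). Cttn (ENSMUSG00000031078, chromosome 7, 144435733 to 144471009, minus strand) stood at 10.3, 10.6, 12.3 and 10.7 CPM in treated replicates, against 43.2, 39.6, 49.6 and 37.9 CPM in control replicates (log2 fold change -1.95, SE 0.09). In Adssl1, Rap1gap2 and Cttn, as in every member by the choice made, each treated library lay below each control library.

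Seen per kilobase of annotated exon, so that genes can be compared, Ramp1 was the most abundant member in both arms, at 11.1 CPM per kb in treated and 41.5 CPM per kb in control libraries. In control libraries Adssl1 (12.0 ± 2.77 CPM per kb), Cttn (10.2 ± 1.22) and Cpm (9.04 ± 1.56) came next, and the ranges of mean ± SD (n = 4) of the 3 overlapped. Tmem273 (7.14) and Art2b (7.10) were level, as were Stab1 (3.14) and St8sia6 (3.14), and Rap1gap2 (1.74) and Fbln2 (1.73) were the lowest pair. In treated libraries the order of the same measure was Ramp1, Cttn (2.62), Adssl1 (2.31), Art2b (1.90), St8sia6 (0.807), Tmem273 (0.739), Cpm (0.616), Stab1 (0.514), Rap1gap2 (0.363) and Fbln2 (0.302). By the same measure Cpm stood at percentile 19.1 of tested genes in treated and percentile 62.2 in control libraries, while Ramp1, at percentile 66.8 in treated and 90.8 in control libraries, still lay above most genes.

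The choice of members ended within a dense run of falls. Called falls that averaged 5 CPM or more, did not overlap between the groups and carried no predicted-gene symbol numbered 1678, of which 60 were at least 2-fold lower, and the members hold ranks 3 to 12 of them by fitted fold. Stra6 (33.4-fold lower) and Dhrs3 (29.2-fold lower), both of retinoid metabolism, rank above them. Art2b, just inside at 3.74-fold, is followed by Tnfsf14 (2.58 ± 0.440 CPM in treated and 9.63 ± 0.568 CPM in control libraries, 3.73-fold), Sorcs2 (3.65-fold), Inava (3.59-fold), Xcl1 (3.56-fold) and Muc13 (3.42-fold). Over all 2617 called falls, with no floor on level, the members rank 5th (Cpm) to 43rd (Art2b).

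The families and partners of the members, 174 listed genes of which 124 were tested, were mostly nearer to no difference than the members themselves. Of these, 25 rose and 42 fell, 54.0% in either direction against 36.8% of all tested genes. Their median log2 fold change was -0.08, against 0.01 over all tested genes. For the 10 members, which were chosen for their large falls, it was -2.32. The partner genes were listed by function, but with earlier results of these data known, so these shares are a description. They are read against 18.7% of all genes called higher and 18.1% called lower. Apart from Olr1, Ak1 and Art4, each of which averaged under 7 CPM in both arms, no tested partner gene had a fitted fall of 2-fold or more.

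**Figure D2:**
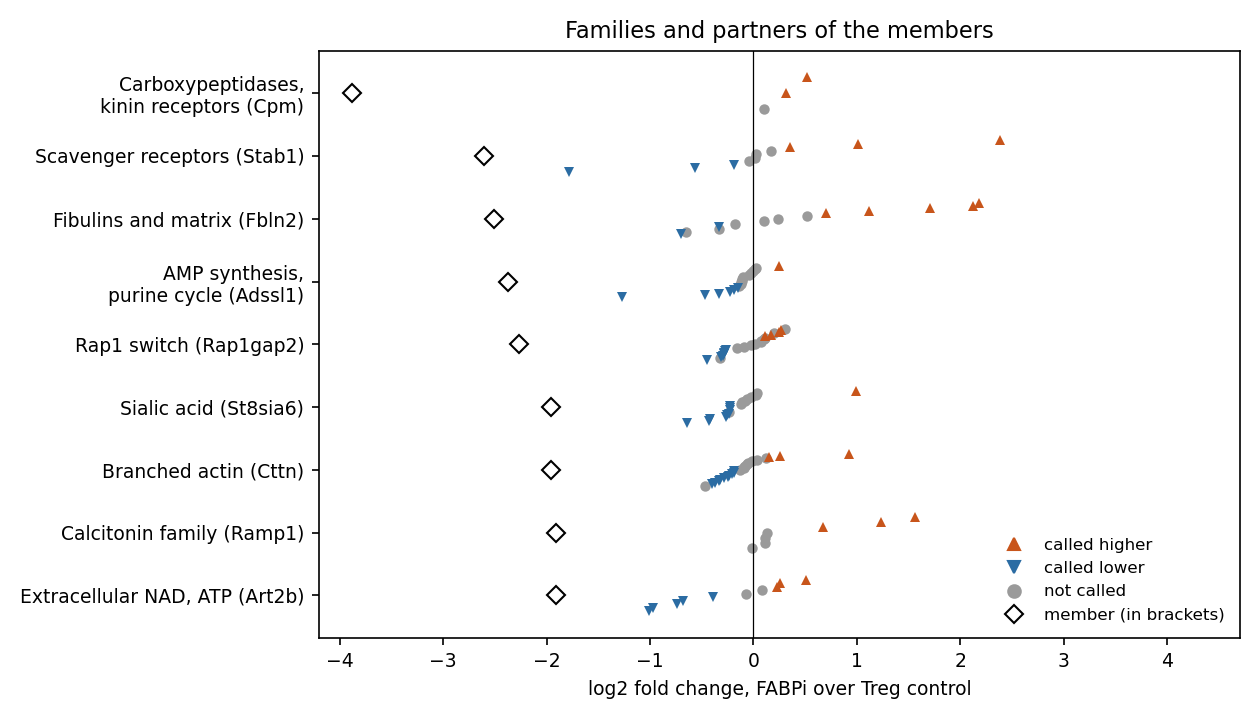
Fitted log2 fold change of treated over control libraries for the tested genes of each partner list (triangles called, circles not called, edgeR adjusted p under 0.05) and for the member to which the list belongs (open diamond). The members, chosen for their large falls, lie between -3.88 and -1.90. Each lies to the left of every tested partner in its own list, which that choice favoured.

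The list set beside Art2b, on extracellular NAD and ATP, had the most called genes relative to those tested: 5 of 10 tested genes fell and 3 rose. Channel genes and an NAD salvage gene are part of that list. In each of the 5 falls all treated libraries lay below all control libraries, as in 16.1% of all tested genes. Their call as falls favoured this. P2rx7, whose channel ART2.2 modifies, fell 1.61-fold, with 36.4, 43.4, 41.1 and 41.2 CPM in treated replicates against 64.8, 65.5, 65.3 and 64.7 CPM in control replicates (edgeR adjusted p = 1.44e-06). Cd38, whose enzyme breaks down NAD, fell to 25.5 ± 1.85 CPM in treated libraries, against 50.0 ± 5.28 CPM in control libraries (SD, n = 4; edgeR adjusted p = 2.21e-06). Nt5e, which encodes CD73 and makes adenosine from AMP, fell to 294 ± 7.72 CPM in treated libraries, against 490 ± 17.0 CPM in control libraries (SD, n = 4; edgeR adjusted p = 9.98e-08). Entpd1, which encodes the ATP-cleaving CD39, was 1.31-fold lower (edgeR adjusted p = 0.000415), and Art4, another ADP-ribosyltransferase gene, was 2.02-fold lower at 3.27 CPM in treated and 6.58 CPM in control libraries (edgeR adjusted p = 0.0013). Enpp1, which cleaves extracellular nucleotides, rose 1.42-fold, the channel gene P2rx4 1.17-fold and the NAD salvage gene Nampt 1.19-fold (edgeR adjusted p = 0.00823, 0.0346 and 0.0245). Without treated replicate 2 or 3, or control replicate 2 or 3, neither P2rx4 nor Nampt was called and 1 gene rose. The P2rx4 call was lost as well without treated replicate 4 (adjusted p = 0.107) or control replicate 1 (0.0613), and the Nampt call without treated replicate 1 (0.0627) or control replicate 4 (0.0598).

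**Figure D3:**
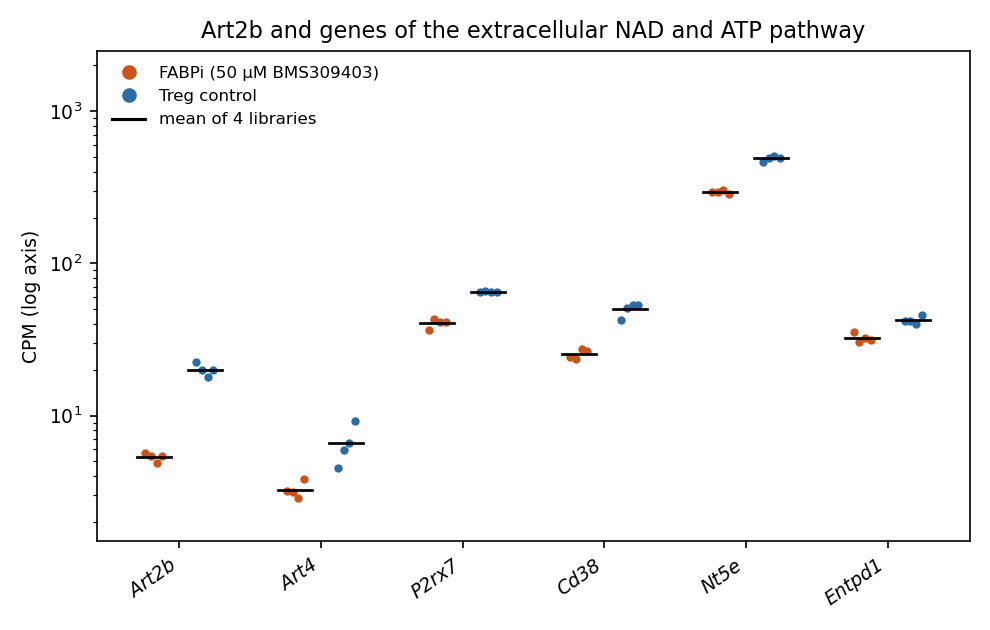
CPM (log axis) of Art2b and 5 genes of the extracellular NAD and ATP pathway that fell, in the 4 treated (FABPi) and 4 control (Treg) libraries, with group means as bars. The treated points lie below the control points in each gene; Cd38 averaged 25.5 CPM in treated and 50.0 CPM in control libraries.

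The Art2b count carries 1 caution. Of its transcripts' 50-base stretches, 5.84% also occur in transcripts of other genes, mostly in the pseudogene Art2a-ps, which held 3 counts over the 4 treated and 41 over the 4 control libraries. The sources used here do not give how reads with several matches were counted. For the other members this share was 2.88% (Cttn), 0.867% (St8sia6), 0.690% (Stab1) and 0 for the remaining 6.

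In the calcitonin family, the gene of the receptor that RAMP1 pairs with had a narrow interval around no difference. Calcrl had 21.8, 19.7, 19.7 and 20.9 CPM in treated replicates against 21.6, 20.0, 19.3 and 21.8 CPM in control replicates (log2 fold change -0.01, 95% interval -0.14 to 0.12, edgeR adjusted p = 0.907). The groups overlapped throughout. Of 7 tested genes of the family 3 rose and 0 fell, all at low levels: Ramp3, the other partner of this receptor detected here, averaged 1.04 CPM in treated and 0.431 CPM in control libraries (log2 fold change 1.23, edgeR adjusted p = 0.00362). Adm, the gene of the peptide adrenomedullin, averaged 3.44 and 2.14 CPM in treated and control libraries (log2 fold change 0.67, edgeR adjusted p = 0.00438), and Adm2 averaged 0.579 and 0.197 CPM (log2 fold change 1.57, edgeR adjusted p = 0.000902). Ramp2 had 1 count in each arm and was not tested.

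Of the carboxypeptidase genes other than Cpm, 3 of 18 listed with the kinin receptors were expressed enough to test, and 2 of these rose and 0 fell. Cpd, which encodes a membrane-bound carboxypeptidase of the secretory pathway, had 476, 483, 463 and 444 CPM in treated replicates against 392, 354, 377 and 375 CPM in control replicates (log2 fold change 0.32, edgeR adjusted p = 0.000199). Cpe rose 1.43-fold (edgeR adjusted p = 0.00153). The kinin receptor gene Bdkrb1 had 0 counts in either arm, and Bdkrb2 had 1 count over the treated and 1 over the control libraries.

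Scavenger receptor genes moved both ways, with 3 of 10 tested genes higher and 3 lower. Stab2, the closest relative of Stab1, had 0 counts over the treated and 1 over the control libraries. Cd36, a receptor for fatty acids and modified lipoproteins, averaged 4.63 CPM in treated and 0.896 CPM in control libraries (log2 fold change 2.38, edgeR adjusted p = 2.35e-05), while Olr1, a receptor for oxidised LDL, averaged 0.611 and 2.12 CPM (log2 fold change -1.79, edgeR adjusted p = 1.31e-05). Scarb1, the HDL receptor, was 1.48-fold lower (edgeR adjusted p = 1.13e-06). Cxcl16 was higher (log2 fold change 1.01, edgeR adjusted p = 0.0228) at 0.666 CPM in treated and 0.332 CPM in control libraries, a call that was lost without treated replicate 1 (adjusted p = 0.0611), treated replicate 3 (0.0629), control replicate 2 (0.0616) or control replicate 4 (0.0616). Lrp1, a large lipoprotein receptor, was 1.28-fold higher (edgeR adjusted p = 0.0307), a call lost without treated replicate 1 (0.0705), 2 (0.0556) or 4 (0.0724) or control replicate 2 (0.1) or 3 (0.0763), and the T cell surface gene Cd5 was 1.14-fold lower (adjusted p = 0.0065). Without treated replicate 1 or control replicate 2, 1 gene of the list rose.

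Stab1 overlaps another gene, Nt5dc2, on the opposite strand, and 0.690% of its 50-base stretches are shared, most of them with Nt5dc2. Nt5dc2 was also lower, with 8.86 ± 0.835 CPM in treated and 20.2 ± 1.54 CPM in control libraries (SD, n = 4; log2 fold change -1.19, edgeR adjusted p = 5.59e-07). The kit keeps strand, but the sources used here do not give whether counting used it, so reads of the pair may be mixed.

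Macrophage and endothelial markers were set beside Stab1, since it marks those cells. The 13 macrophage and monocyte genes summed to 3.85 to 6.70 CPM in treated and 4.61 to 6.66 CPM in control libraries. Csf1r averaged 0.200 CPM in treated and 0.117 CPM in control libraries and Mrc1 0.0422 and 0.0152 CPM, and of 3 tested genes 0 rose and 1, Adgre1, fell, at 0.137 CPM in treated and 0.565 CPM in control libraries (edgeR adjusted p = 0.00094). The 10 endothelial genes summed to 99.3 to 106.7 CPM in treated and 117 to 125.8 CPM in control libraries, nearly all of it Pecam1, which T cells also express. Both of the 2 tested genes were called lower, as Stab1 was. These were Pecam1 (log2 fold change -0.25, edgeR adjusted p = 0.0007) and Egfl7 (-0.37, adjusted p = 0.0175). Egfl7 averaged 3.38 CPM in treated and 4.36 CPM in control libraries. Emcn was at 0 and Cdh5 averaged 0.0125 CPM in treated and 0 CPM in control libraries. Fibroblast markers, set beside Fbln2, summed to 5.84 to 7.38 CPM in treated and 3.97 to 4.39 CPM in control libraries, the reverse of the order of Fbln2, with Col3a1, Dcn and Mfap5 at 0 and 1 of 3 tested genes (Col1a2) higher. Skeletal muscle markers, set beside Adssl1, summed to 1.40 to 2.09 CPM in treated and 1.02 to 1.70 CPM in control libraries, with 5 of 10 genes at 0 and 0 called of 1 tested. Markers of dendritic cells summed to 11.2 to 16.3 CPM in treated and 4.83 to 5.71 CPM in control libraries, with 2 of 3 tested genes (Zbtb46 and Batf3) higher. Those of B cells summed to 277 to 297 CPM in treated and 344 to 435 CPM in control libraries, mostly Ighm, with 2 of 8 genes lower. Those of NK cells summed to 3.69 to 6.46 CPM in treated and 2.15 to 3.97 CPM in control libraries, with both tested genes (Eomes and Klrk1) higher and Ncr1 at 0, and those of CD8 T cells to 10.2 to 14.9 CPM in treated and 9.89 to 14.3 CPM in control libraries, with 0 of 2 called. The part of these cells in the members' differences was not tested.

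Matrix genes around Fbln2 moved both ways: 5 of 13 tested genes rose and 2 fell. Fbln1, of the same fibulin family, fell to 10.9 ± 1.02 CPM in treated libraries, against 17.7 ± 1.29 CPM in control libraries (SD, n = 4; edgeR adjusted p = 3.86e-05). Fn1, whose product fibronectin binds fibulin-2, had 4.76, 6.40, 6.72 and 7.14 CPM in treated replicates against 1.21, 1.08, 1.61 and 1.87 CPM in control replicates (log2 fold change 2.12, edgeR adjusted p = 3.51e-06). Fbln5 (log2 fold change 2.18, edgeR adjusted p = 5.07e-05), Fbn1 (1.71, adjusted p = 0.000106) and Hspg2 (1.12, adjusted p = 0.00679) also rose, at 0.760, 2.24 and 1.01 CPM in treated libraries, against 0.162, 0.700 and 0.463 CPM in control libraries. Of the laminin chains, Lama5 rose to 231 CPM in treated libraries, against 143 CPM in control libraries (log2 fold change 0.70, edgeR adjusted p = 6.77e-05), and Lamc1 fell 1.26-fold (adjusted p = 5e-05).

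Of 18 tested genes listed under AMP synthesis and the purine nucleotide cycle, 6 fell, 1 rose and 11 were not called. With the replicate number as a block 11 fell. The list also holds genes of GMP synthesis, and some of the falls are theirs. Adss, the ubiquitous counterpart of Adssl1, was 1.17-fold lower, with 158 ± 7.59 CPM in treated and 185 ± 5.76 CPM in control libraries (SD, n = 4; edgeR adjusted p = 0.00176). The salvage enzyme gene Hprt fell 1.39-fold (edgeR adjusted p = 0.000286) and Paics, of purine synthesis, 1.26-fold (adjusted p = 0.000317). Ak1, a cytosolic adenylate kinase, was 2.41-fold lower at 0.415 CPM in treated and 1.00 CPM in control libraries (edgeR adjusted p = 0.000539), and Ampd2, an AMP deaminase, was 1.19-fold higher (adjusted p = 0.0052).

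On the Rap1 switch, 7 of 22 tested genes fell and 4 rose; with the replicate number as a block 7 rose, and without control replicate 3 or treated replicate 2, 2 rose. The GTPase genes themselves fell, Rap1a to 135 ± 5.77 CPM in treated libraries against 164 ± 8.96 CPM in control libraries, and Rap1b to 227 ± 12.7 CPM against 276 ± 17.1 CPM (SD, n = 4; edgeR adjusted p = 0.000902 and 0.00191). Rasgrp2, an exchange factor that loads Rap1, fell 1.37-fold (edgeR adjusted p = 0.0071), Sipa1, another Rap1-inactivating protein, 1.23-fold (adjusted p = 0.000522), Rap2b 1.25-fold (adjusted p = 0.000661) and the effector gene Rassf5 1.22-fold (adjusted p = 0.00012). The rises were small: Krit1 1.21-fold, Sipa1l2 1.19-fold, Sipa1l1 1.12-fold and Rapgef1 1.08-fold (edgeR adjusted p = 0.0212, 0.0118, 0.00891 and 0.0356). The Krit1 call was lost without treated replicate 2 or 4 or control replicate 3 (adjusted p = 0.0584 to 0.0682), and the Rapgef1 call without treated replicate 1 or 2 or control replicate 2, 3 or 4 (0.0549 to 0.116) or with no filter on low counts (0.0804). Rap1gap, the closest relative of Rap1gap2, averaged 1.02 CPM in treated and 0.828 CPM in control libraries (log2 fold change 0.30, 95% interval -0.15 to 0.75, edgeR adjusted p = 0.271).

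In the list on sialic acid synthesis and transfer, 9 of 18 tested genes fell and 1 rose, none by as much as St8sia6. The list also holds genes of sialidases, which remove sialic acid, and a sialidase gene is among the falls. The synthesis enzymes Gne, Nans and Cmas fell 1.20-fold, 1.19-fold and 1.17-fold (edgeR adjusted p = 0.0016, 0.00338 and 0.00206). Among transferases St6gal1 fell 1.34-fold (edgeR adjusted p = 0.00057), St3gal4 1.33-fold (adjusted p = 0.000204) and St6galnac3 1.57-fold (adjusted p = 0.0091), the last at 1.28 CPM in treated and 1.99 CPM in control libraries. St3gal6 rose, with 3.17 ± 0.477 CPM in treated and 1.60 ± 0.170 CPM in control libraries (SD, n = 4; edgeR adjusted p = 0.00024). St8sia1, a relative in the same family, was not called (log2 fold change -0.23, 95% interval -0.42 to -0.05, edgeR adjusted p = 0.0512); it passed with the replicate number as a block (adjusted p = 0.00499), without control replicate 1 (9.45e-05) and under 3 other settings.

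Around Cttn, 10 of 23 tested genes of branched actin fell and 3 rose. Hcls1, the cortactin relative of blood cells, was 1.14-fold lower, with 408 ± 12.5 CPM in treated and 463 ± 18.2 CPM in control libraries (SD, n = 4; edgeR adjusted p = 0.00588). Of the Arp2/3 complex, which builds actin branches, Arpc4 fell 1.32-fold (edgeR adjusted p = 0.000535), Arpc3 1.29-fold (adjusted p = 0.000184) and Arpc5 1.26-fold (adjusted p = 0.000276). Of the 3 rises, Arpc5l was 1.19-fold higher (edgeR adjusted p = 0.000709) and Hdac6 1.11-fold higher (adjusted p = 0.0493); the Hdac6 call was lost with DESeq2 (0.0523), limma-voom (0.0511), RLE size factors (0.0569), no filter on low counts (0.0615), and without treated replicate 2 or 4 or control replicate 1, 2 or 3 (0.0902 to 0.151). Cttnbp2nl, whose product binds cortactin, rose to 5.15 ± 1.12 CPM in treated libraries, against 2.72 ± 0.343 CPM in control libraries (SD, n = 4; edgeR adjusted p = 0.00093).

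Genes beside the members on the chromosome were measured too. Nt5dc2, which overlaps Stab1 and fell (log2 fold change -1.19), was described above and is not counted here. Of the 20 nearest tested protein-coding genes that do not overlap a member, 1 on each side of every member, 9 fell, 4 rose and 7 were not called. Over all tested genes 18.1% were called lower and 18.7% higher. The neighbours had a median log2 fold change of -0.02 and a range of -0.92 to 0.50. With the replicate number as a block 7 rose. Beside Ramp1, Ube2f was 1.88-fold lower (edgeR adjusted p = 2.08e-08) and Rbm44 1.36-fold lower (adjusted p = 0.00926), and beside Cttn the sterol gene Dhcr7, 587 kb away, was 1.84-fold lower (adjusted p = 5.73e-08). Ppfia1, also beside Cttn, was 1.10-fold lower (edgeR adjusted p = 0.0128). Beside St8sia6, Vim rose (log2 fold change 0.46, edgeR adjusted p = 6.83e-05) and Hacd1 fell at 0.479 CPM in treated and 0.914 CPM in control libraries (log2 fold change -0.92, adjusted p = 0.00379). Beside Tmem273, Wdfy4 and Ercc6 rose (log2 fold changes 0.50 and 0.20, edgeR adjusted p = 0.00223 and 0.0314), beside Adssl1 Inf2 rose and Siva1 fell (0.33 and -0.25, adjusted p = 0.00128 and 0.00296), beside Stab1 Smim4 fell (-0.41, adjusted p = 0.0128) and beside Cpm Cpsf6 fell (-0.14, adjusted p = 0.0235). Pde2a, beside Art2b, was lower at 0.447 CPM in treated and 0.746 CPM in control libraries (log2 fold change -0.76, edgeR adjusted p = 0.0448). Ercc6 lost its call without treated replicate 2 or 4 or control replicate 1, 2 or 3 (adjusted p = 0.0515 to 0.0922), Pde2a without treated replicate 1, 3 or 4 or control replicate 2, 3 or 4 (0.0528 to 0.174), and Cpsf6 without treated replicate 3 (0.0692) or 4 (0.066).

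**Figure D4:**
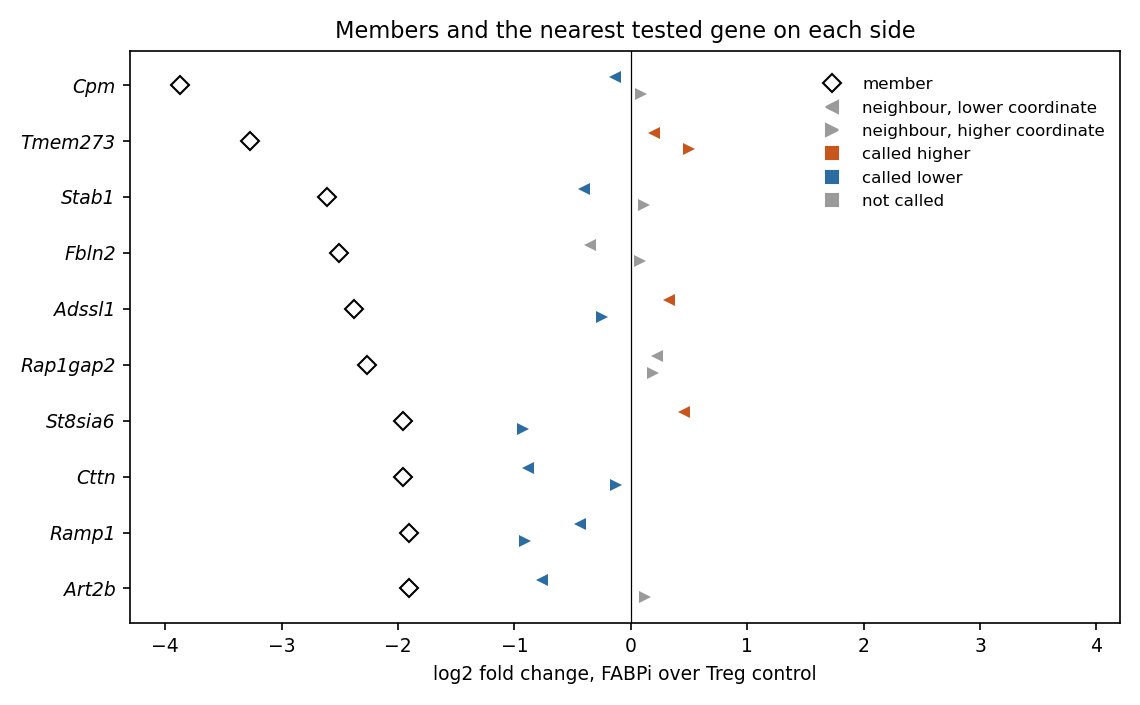
Fitted log2 fold change of treated over control libraries for each member (open diamond) and for the nearest tested, non-overlapping protein-coding gene on its lower-coordinate and higher-coordinate side (triangles, coloured by call). These neighbours lie between -0.92 and 0.50 (Nt5dc2, which overlaps Stab1, is not drawn). The members lie between -3.88 and -1.90, and were chosen for their large falls, which favoured this gap.

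Within a group no library was high or low in all members. Control replicate 1 held the lowest value of 5 members (Cpm, Stab1, Adssl1, Rap1gap2 and Ramp1) and the highest of 2 (Fbln2 and Art2b). Treated replicate 3 held the lowest value of 5 members and the highest of 4. The SD of log2(CPM + 0.5) within control libraries was 0.37 for Fbln2, 0.36 for Adssl1 and 0.27 for Cpm. The median over tested genes that averaged 5 CPM or more was 0.08, and all 10 members lay above it. Tmem273 and St8sia6 were close to that median, at percentiles 52.2 and 56.3. The tested genes were not matched to the members for level. Within treated libraries the SD had a median of 0.10 over the members and 0.07 over the same tested genes. There 8 of 10 members lay above the median of the tested genes. Nearness was taken as the root-mean-square difference of centred log2(CPM + 0.5) over the 8 libraries. This measure includes the size of the fall, by which the members were chosen. By it the nearest gene was another member for 8 of 10. Rap1gap2 and St8sia6 (0.11), Cttn and Ramp1 (0.14), and Tmem273 and Stab1 (0.18) were each other's nearest gene, Cttn was nearest to Fbln2 (0.25) and Ramp1 to Adssl1 (0.24). The nearest to Cpm was Dhrs3 (0.20) and the nearest to Art2b was Muc13 (0.12). With a pseudocount of 0.1, 5 of 10 kept their nearest gene. That of Cpm became Tmem273, that of Stab1 Rap1gap2 and that of St8sia6 Art2b. Of the mutual pairs only Cttn and Ramp1 remained.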

How the data were processed

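RNA of 8 libraries was read with a stranded poly(A) kit. Per the submitters' processing notes, reads were aligned with STAR and counted with featureCounts on GRCm38; versions and the treatment of strand and multiple matches are not given in the sources used here. The deposited files hold raw counts per gene ID, made by the authors. Symbols, exon lengths and neighbours came from the GENCODE M21 annotation; 53360 of 53465 IDs matched, and the other 105 held 0.00631% of counts.

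Counts were filtered with filterByExpr, scaled by TMM and tested with edgeR 4.0.16 in R 4.3.3 (glmQLFit, glmQLFTest; Benjamini-Hochberg over 14443 genes, called at an adjusted p under 0.05). P-values measure the spread between these libraries, which may be technical. Counts of libraries in 1 group varied beyond sampling noise (chi-square per degree of freedom 3.08 to 24.2 over 12 pairs), so each counts as 1. Same-numbered libraries deviated together (correlations 0.524, 0.214, 0.200 and 0.390 for numbers 1 to 4), a pairing taken from the data and not stated by the labels; treated replicate 2 correlated best with control replicate 4. Other settings were RLE size factors, no filter, DESeq2 1.42.0, limma-voom 3.58.1, the replicate block and leaving out each library. The fitting was tested on simulated data.

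The members and lists were chosen with earlier results of these data known. Named were the members, the next 5 falls, up to 4 called genes by size per partner list with the closest relative, called neighbours, the nearest profile and defining markers. Calcrl, Nt5dc2, Entpd1, Rap1a, Rap1b, Gne, Nans, Cmas and the called genes that complete counts of 5 or fewer were named after their values were seen, and so were the closest relatives.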

Additional observations from a re-analysis of the deposited data

Results flagged for a closer look

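In 164 groups of 4 libraries from 82 named genes, 5 held a library set apart from the other 3 by a gap wider than Dixon's 95% limit; chance flags about 1 in 20 groups. None of the 20 groups of the 10 members was among them. Scarb1 stood at 54.4 CPM in treated replicate 4, and the nearest library of its group at 59.7 CPM. Ampd2 stood at 89.7 CPM in treated replicate 3, and the nearest at 96.6 CPM. Nt5dc2, which overlaps Stab1, stood at 10.1 CPM in treated replicate 1, and the nearest at 8.63 CPM. Siva1, beside Adssl1, stood at 28.0 CPM in control replicate 4, and the nearest at 30.7 CPM. Hacd1, beside St8sia6, stood at 0.649 CPM in control replicate 4, and the nearest at 0.982 CPM.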

How the results depend on the processing

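Each result was recomputed under 13 other settings. The fitted log2 fold change of every member kept its direction in all of them, and the median log2 fold change of the 10 members ran from -2.33 to -2.27 when single libraries were left out. With the replicate number as a block, genes called higher numbered 3845 and genes called lower 3728, 7 neighbours rose in place of 4, and 30 partner genes rose and 57 fell in place of 25 and 42; beyond the values given beside the results, the block moved no count by over 1.5 times and changed no named gene's call. Leaving out single libraries put genes called higher at 2078 to 2939 and genes called lower at 2007 to 2779. The Calcrl log2 fold change, not called, was -0.043 to 0.014 over those fits and changed sign without control replicate 1 (0.01) or 4 (0.014) or treated replicate 2 (0.01) or 3 (0.01); the cause was not tested. Of 72 named genes other than members, 60 stayed on the same side of the threshold in every setting. With no filter on low counts the Cpsf6, Ppfia1, Rapgef1 and Hdac6 calls were lost (adjusted p = 0.0506, 0.0691, 0.0804 and 0.0615), and the Pde2a call with DESeq2 (0.0622) and limma-voom (0.0597). Depth limits Tmem273 most, at 44 reads in 1 treated library.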

Other observations

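The median exon length was 5078 bases over the members (1604 to 10288) and 3917 bases over all tested genes. The median genomic span was 40.3 kb (8.63 to 227.6) over the members and 18.4 kb over all tested genes. Tmem273, Adssl1, Art2b and Ramp1 had exon lengths below the median of tested genes. All members are protein-coding, and the tested genes were not limited to such genes. The promoter windows of the members had a median GC content of 58.8% (43.2 to 74.4) against 52.4% over all windows. The CPM of the 10 members summed to 75.6, 72.9, 79.4 and 73.9 in treated replicates and to 325.2, 374.8, 375.8 and 357.3 in control replicates.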
